A study of Homo sapiens with 3 samples.

Results

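The heat shock chaperone system was described on 3 expression arrays through 43 genes: the transcription factors HSF1 and HSF2, the HSP70, HSP110 and HSP90 chaperones, the mitochondrial chaperonin, and their J-domain, BAG and other cochaperones, with the collagen chaperone SERPINH1. Members were taken from a fixed list of gene symbols, and each was represented by the probe set of highest mean log2 signal among those annotated with its symbol. Probe sets were found for 41 of the 43 genes. HSF2 and AHSA1 had none in the annotation used and were not analysed here. HSPA1A and HSPA1B, near-identical genes, share their probe sets, so the 41 genes gave 40 distinct probe sets out of 20280 chosen in the same way for 21357 gene symbols. The cells were labelled as HepG2, a human liver tumour line, and were stably transfected with an Hsp27 open reading frame vector (ORF), an Hsp27 shRNA vector (shRNA) or a control vector. HSPB1 is the gene of Hsp27, a small ATP-independent chaperone, and the labels also call the cells HCC, hepatocellular carcinoma. All cells grew in DMEM with fetal bovine serum. The title of the shRNA sample calls it SiRNA, that of the control names EGFP, and that of the ORF sample IRES2. There was 1 array per group, so no difference below has a replicate check, no p-value is given, and the values describe these arrays. The labels do not say whether a transfected line came from 1 clone or from a pool.

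HSF1 is the main transcription factor of the heat shock response. In unstressed cells it is held inactive, in part by HSP70 and HSP90, and when unfolded proteins occupy these chaperones it forms trimers that bind heat shock elements in the promoters of chaperone genes. HSP70 proteins bind short hydrophobic stretches of unfolded clients in a cycle driven by ATP. J-domain proteins deliver clients and stimulate the ATPase, while BAG and HSP110 proteins exchange the nucleotide and release the client. STIP1 hands clients from HSP70 to HSP90, which completes the folding of kinases and steroid receptors together with CDC37, AHSA1, PTGES3 and FKBP4. Tumour cells are known to carry high levels of many of these proteins without heat stress.

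The heat shock element is built of the unit GAA and its complement TTC in alternating direction. Upstream promoter stretches are shown because they belong to inducible genes and include HSPA6, an HSP70 gene that is nearly silent without stress. Each is the 250 bases before the annotated start, from RefSeq's promoter table for GRCh38.p14, written 5′ to 3′ on the gene's strand, with every match to GAANNTTC or TTCNNGAA in capitals.
HSPA1A, chr6:31815293-31815542, plus strand: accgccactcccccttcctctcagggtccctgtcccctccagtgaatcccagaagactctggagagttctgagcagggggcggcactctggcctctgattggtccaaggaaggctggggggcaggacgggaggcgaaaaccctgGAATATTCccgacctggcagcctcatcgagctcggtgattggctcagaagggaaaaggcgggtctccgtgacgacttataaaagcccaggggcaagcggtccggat
HSPA6, chr1:161524290-161524539, plus strand: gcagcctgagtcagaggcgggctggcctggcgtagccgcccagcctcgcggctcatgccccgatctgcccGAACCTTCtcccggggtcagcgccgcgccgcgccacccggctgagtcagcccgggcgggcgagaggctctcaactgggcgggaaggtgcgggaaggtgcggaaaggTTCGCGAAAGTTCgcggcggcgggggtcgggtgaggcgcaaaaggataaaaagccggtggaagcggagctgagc
CHORDC1, chr11:90223050-90223299, minus strand: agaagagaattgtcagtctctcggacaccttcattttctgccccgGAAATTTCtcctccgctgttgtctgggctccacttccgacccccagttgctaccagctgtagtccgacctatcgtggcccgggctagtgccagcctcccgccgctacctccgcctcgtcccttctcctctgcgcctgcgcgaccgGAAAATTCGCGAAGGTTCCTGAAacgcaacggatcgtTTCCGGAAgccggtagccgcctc
In these letters HSPA1A held 1 such pair of units, HSPA6 held 3 and CHORDC1 held 6, several of them overlapping.

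A stricter form with 3 alternating units, GAANNTTCNNGAA or its reverse complement TTCNNGAANNTTC, was searched in the 300 bases from 250 before to 50 after each start. It occurred in at least 1 promoter of 9 of the 37 members found in the table (24.3%), against 166 of 27305 genes in the whole table (0.608%). Counted per promoter, the shares were 16.1% and 0.490%. The member list includes genes known as heat-inducible, and 8 of the 18 such members in the table had the form (44.4%). Of the other 19 members 1 had it (5.26%). The pair of units occurred in 18 of the 37 members (48.6%), against 4417 genes of the whole table (16.2%). HSF1, HSPA14, BAG4, ST13, FKBP4 and STUB1 were not found in the table. The 3-unit matches upstream of the start used follow for the members whose promoters are not printed above, with up to 8 bases on each side. They are given because the transcripts of these genes are described later. In HSPA8, HSP90AA1, HSP90AB1 and HSPD1 they lie inside the annotated span of the gene, which begins further upstream than the start used. Capitals mark the match.
HSPA8, chr11:123062171-123062199, minus strand: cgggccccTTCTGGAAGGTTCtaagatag
HSPA8, chr11:123062346-123062374, minus strand: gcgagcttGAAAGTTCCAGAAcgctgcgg
HSP90AA1, chr14:102087112-102087140, minus strand: gagggttcTTCCGGAAGGTTCgggaggct
HSP90AB1, chr6:44247770-44247798, plus strand: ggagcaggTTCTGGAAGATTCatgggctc
HSP90AB1, chr6:44247823-44247851, plus strand: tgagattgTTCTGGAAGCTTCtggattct
HSPD1, chr2:197500062-197500090, minus strand: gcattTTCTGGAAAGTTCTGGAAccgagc
SERPINH1, chr11:75562169-75562197, plus strand: ttccaactTTCCAGAAGTTTCtcgggacg
DNAJB6, chr7:157336865-157336893, plus strand: agagccgaGAACCTTCGCGAAggtggggc
The ninth member with a match was DNAJA1, whose match lay after the start. DNAJB5, DNAJB2 and CDC37, the members that differed most between the arrays, had neither form in this window, and a match or its absence says nothing about binding of HSF1.

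In direction, the targeted gene followed the label of the ORF array in one comparison and not in the other. HSPB1 read 13.11 on the ORF-labelled array, 13.03 on the shRNA-labelled one and 13.25 on the control-labelled one, so the array meant to hold raised Hsp27 read below control, with a log2 ratio of −0.14 (−0.09 after loess centring). ORF lay above shRNA by 0.08 on the log2 scale, against a noise SD, explained below, of 0.08. For shRNA against control the ratio was −0.22 (−0.17 after loess centring, noise SD 0.12). Both were in the direction of the labels, but each of them, and the ratio of ORF to control, lay within 2 noise SD. Every direction below therefore rests on the labels alone, and ORF, shRNA and control stand for the arrays so labelled. Of 8 hepatocyte markers, AFP and TF alone exceeded on any array the floor used here, a log2 signal of 5.93, which is the median over all probe sets and arrays, and 0 reached the pooled 75th percentile (8.63). ALB, the defining marker, read at most 4.88, so the HepG2 label is not borne out by these markers. Leukocyte markers passed the floor for 2 of 5 genes, with PTPRC at most 4.18, and the fibroblast or stellate cell markers for 6 of 6, of which COL1A1 and DCN had a high mean signal. These were past 1.5-fold in opposite directions between shRNA and control: COL1A1 read 9.97, 10.62 and 9.82 in the order ORF, shRNA, control, and DCN read 9.67, 9.23 and 10.14. Their part in the results below was not tested.

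Most genes of the chaperone system gave high array signals. Of the 40 probe sets, 40 exceeded the floor on 1 or more arrays and 35 were at or above the 75th percentile on all 3. In 13 of them every array read 13 or more on the log2 scale. For 23 of the 40 (57.5%) the 3 arrays lay within 0.2 of each other on the log2 scale, against 37.3% of all genes above the floor. Bright probe sets scatter less in general: between 11 and 13 the shares were 9 of 15 members (60%) and 60.9% of all genes, and between the 75th percentile and 11 they were 1 of 8 (12.5%) and 43.2%. At 13 and above they were 13 of 14 (92.9%) and 74.9%. Signals of different probe sets depend on their probes, so the genes are not ranked against each other by level.

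**Figure D1:**
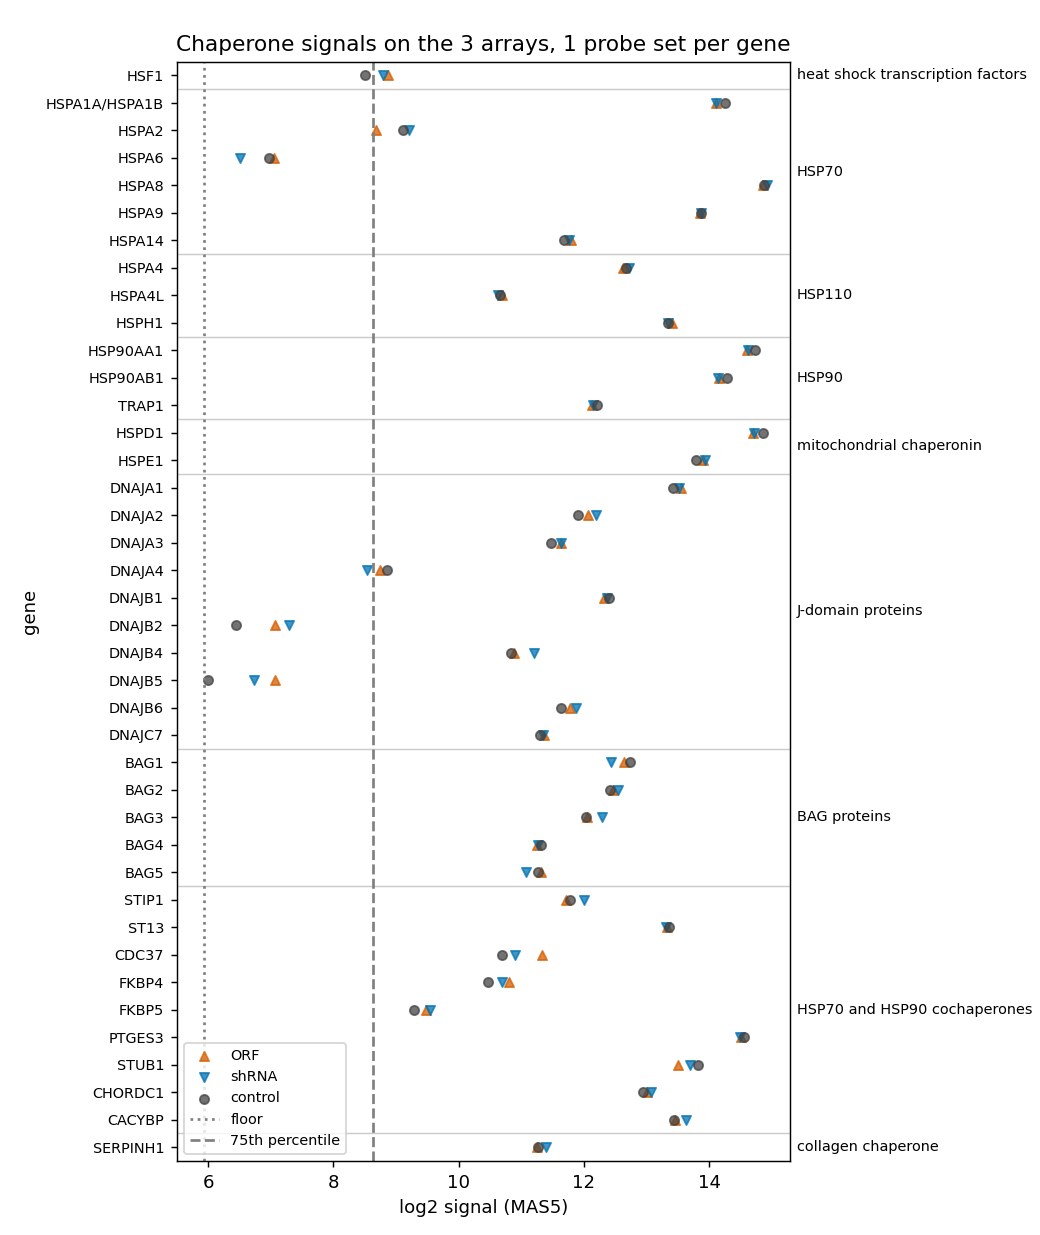
Log2 signal (x axis) of each chaperone gene (y axis, grouped by class) on the arrays labelled ORF (triangles up), shRNA (triangles down) and control (circles), 1 array each, with the floor of 5.93 dotted and the 75th percentile of 8.63 dashed. Most triples of points lie almost on top of each other, and DNAJB2, DNAJB5 and HSPA6 are the genes with a mean signal below the dashed line.

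Each array measured RNA of a whole culture, so fewer cells of a kind and less RNA per cell cannot be told apart. On the ORF-labelled array, 3 members were at least 1.5-fold higher than on the control-labelled array and 0 were at least 1.5-fold lower. The higher ones were DNAJB5, CDC37 and DNAJB2. That is 7.5% of the 40 members, against 3.05% of the 13085 genes above the floor that were higher, while 2.72% were lower. DNAJB5 and DNAJB2 were dim, and of the 37 members of high mean signal (at or above 8.63) 1 was higher, CDC37, or 2.70%, against 1.03% of 8168 such genes higher and 0.698% lower. The median log2 ratio of the members was 0.02, against 0.00 for all genes.

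On the shRNA-labelled array, 2 members were at least 1.5-fold higher than control and 0 were at least 1.5-fold lower. They were again DNAJB2 and DNAJB5, which share the control array with the comparison above. The share was 5% of the members, against 3.50% of all genes above the floor higher and 3.26% lower. Among the 37 of high mean signal 0 passed in either direction, against 1.44% higher and 1.19% lower of such genes. The median of the members was 0.06, against −0.01 for all genes.

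Set directly against each other, the arrays labelled ORF and shRNA differed by 1.5-fold in 0 members in either direction, against 2.62% of all genes higher with ORF and 2.61% lower. The median of the members was −0.01 and that of all genes 0.01. In the 37 of high mean signal the count was also 0, against 0.857% of such genes higher and 0.747% lower. The widest differences were in HSPA2 (log2 ratio −0.53), HSPA6 (0.53) and CDC37 (0.44).

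At a lower threshold, a log2 ratio of 0.32 in size, 5 members were higher and 1 lower for ORF against control, against 9.59% and 9.11% of all genes. For shRNA against control 3 were higher and 2 lower, against 11.2% and 11.4%, and for ORF against shRNA 3 were higher and 1 lower, against 9.81% and 9.33%. HSF1 and FKBP4 joined the higher members with ORF, DNAJB4 joined with shRNA, and HSPA2 (ORF), HSPA6 and DNAJA4 (shRNA) were the lower ones. At 2-fold DNAJB5 alone remained, with ORF, where 0.665% of all genes were higher and 0.512% lower. With shRNA 0 members were past 2-fold, against 0.665% and 0.489% of genes, and for ORF against shRNA 0, against 0.313% and 0.451%.

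Control was the highest of the 3 arrays for 13 of the 37 members of high mean signal (35.1%, against 37.9% of such genes) and the lowest for 16 (43.2%, against 33.2%). The first group held HSPA1A/HSPA1B, HSPA9, the HSP90 genes, HSPD1, DNAJA4, DNAJB1, BAG1, BAG4, ST13, PTGES3 and STUB1, and the second included HSF1, HSPE1, CDC37 and several J-domain genes.

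As a yardstick for a single ratio, a noise SD was taken from paired probe sets that read the same gene at similar signal. It holds scatter between probes and within a hybridisation but nothing of the scatter between cultures. In ORF against control, 5 of 40 members (12.5%) lay more than 2 noise SD from 0, against 11.9% of all genes. In shRNA against control 4 did (10%, against 9.1%), and in ORF against shRNA 6 did (15%, against 9.43%). The shares in both comparisons with control lay near those of all genes. The members past 2 noise SD were HSPA2, DNAJB5, CDC37, FKBP4 and STUB1 for ORF against control. For shRNA against control they were DNAJA2, DNAJB2, DNAJB4 and BAG1, and for ORF against shRNA HSPA2, DNAJB4, BAG3, STIP1, CDC37 and STUB1. The names depended on centring. After loess centring HSPE1 and DNAJA1 (0.19 each, noise SD 0.08) joined for ORF against control. For shRNA against control CACYBP joined (0.25, noise SD 0.12) and DNAJB2 dropped out (0.81, noise SD 0.42). For ORF against shRNA CACYBP joined (−0.17, noise SD 0.08). Shares of all genes after centring were not taken.

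**Figure D2:**
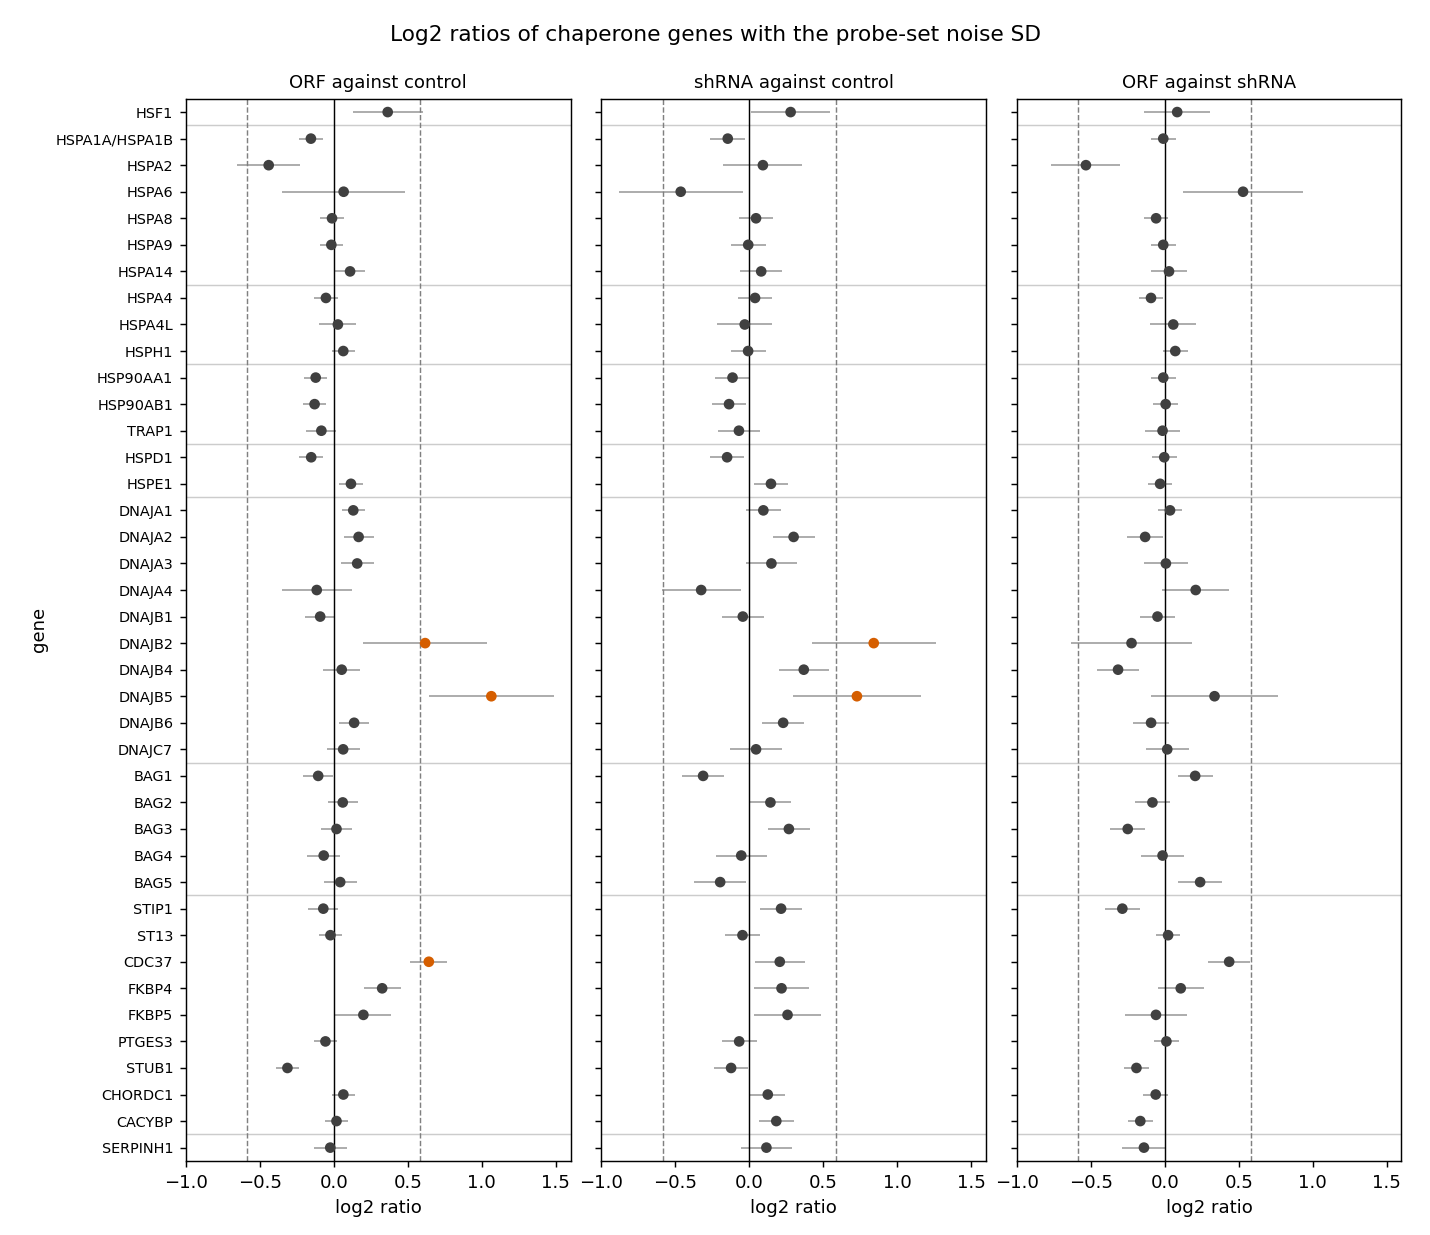
Log2 ratio (x axis) of each chaperone gene (y axis) in 3 panels, ORF and shRNA each against control and then the ORF array against the shRNA array, with bars of 1 noise SD from pairs of probe sets and dashed lines at 1.5-fold. Coloured points pass 1.5-fold: DNAJB5, DNAJB2 and CDC37 in ORF against control, DNAJB5 and DNAJB2 in shRNA against control, and no gene in ORF against shRNA.

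HSF1 itself read 8.87 on the ORF-labelled array, 8.79 on the shRNA-labelled one and 8.51 on the control-labelled one. Control was the lowest array, and both log2 ratios to it were small, 0.36 for ORF (noise SD 0.24) and 0.28 for shRNA (noise SD 0.27). The second, dimmer HSF1 probe set read 6.60, 6.71 and 6.53 in the same order and gave 0.07 and 0.17, on the same side of 0 but smaller.

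The stress-inducible HSP70 genes HSPA1A and HSPA1B, read together, had 14.10 with ORF, 14.11 with shRNA and 14.26 with control. Control was thus the highest array, with log2 ratios of −0.16 for ORF (noise SD 0.08) and −0.15 for shRNA (noise SD 0.12). The other 2 probe sets of these genes also read lower with ORF and with shRNA, between −0.13 and −0.21 for ORF over all 3 probe sets and between −0.15 and −0.34 for shRNA. After loess centring, which removes the offset of bright probe sets, the ratios of the first probe set were −0.07 and −0.05. Those of the other 2 stayed further below 0, at −0.14 and −0.10 for ORF and at −0.13 and −0.31 for shRNA.

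HSPA6, an inducible HSP70 that mice lack, was dim, at 7.04 with ORF, 6.52 with shRNA and 6.98 with control. The shRNA array was the lowest, but the log2 ratios of −0.46 to control and of 0.53 for ORF against shRNA had noise SDs of 0.42 and 0.41. Its second probe set, at 6.12, 4.36 and 5.63, was above the floor with ORF alone. HSPA8, the constitutive HSP70 of the cytosol, was level as deposited, at 14.86, 14.92 and 14.87 in the order ORF, shRNA, control. Its 4 probe sets gave ratios to control between −0.02 and 0.06 for ORF and between −0.04 and 0.05 for shRNA. After loess centring all 4 were positive, from 0.08 to 0.16 for ORF (noise SD 0.08) and from 0.06 to 0.17 for shRNA (noise SD 0.12). The probe sets of HSPA8 are also annotated with small nucleolar RNAs from its introns.

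HSPA2, an HSP70 best known from testis, differed most within the HSP70 class, with 8.67 on the ORF-labelled array, 9.21 on the shRNA-labelled one and 9.11 on the control-labelled one. Only the ORF array was low, at −0.44 to control (noise SD 0.21) and −0.53 to shRNA (noise SD 0.23), and no other probe set of the gene was there to compare. HSPA9 (mortalin), the mitochondrial HSP70, had the smallest spread of all members, with 13.85, 13.86 and 13.87. HSPA14, a ribosome-associated HSP70, lay between 11.68 and 11.79.

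The HSP110 proteins, which exchange nucleotide on HSP70, were level by their brightest probe sets. HSPH1, the heat-inducible one, read 13.41, 13.34 and 13.35 in the order ORF, shRNA, control, HSPA4 read 12.62, 12.72 and 12.68, and HSPA4L read 10.69, 10.63 and 10.66. Log2 ratios to control of this class lay between −0.05 and 0.06 for ORF and between −0.03 and 0.04 for shRNA. A dimmer HSPH1 probe set departed from this, at 10.20 with ORF, 9.49 with shRNA and 9.63 with control.

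Both cytosolic HSP90 genes read slightly highest on the control array. HSP90AA1, the inducible form, had 14.61 with ORF, 14.62 with shRNA and 14.73 with control, and HSP90AB1, the constitutive form, had 14.16, 14.15 and 14.29. Log2 ratios to control were −0.12 and −0.13 for ORF and −0.11 and −0.14 for shRNA, and other probe sets of each gene gave ratios above 0, up to 0.13 and 0.11 for ORF. After loess centring the ratios were −0.02 and 0.003 for HSP90AA1 with ORF and shRNA, the second with its sign turned, and −0.05 and −0.04 for HSP90AB1. TRAP1, the mitochondrial HSP90, lay between 12.13 and 12.21.

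Mitochondrial chaperonin subunits differed from control by small amounts of opposite sign. HSPD1 (HSP60) read 14.71 on both the arrays labelled ORF and shRNA and 14.86 on control, while its lid HSPE1 (HSP10) read 13.91, 13.94 and 13.79. The log2 ratios to control were −0.15 for HSPD1 and 0.12 for HSPE1 with ORF, and −0.15 and 0.15 with shRNA. After loess centring they were −0.05 for HSPD1 and 0.19 for HSPE1 with ORF, and −0.03 and 0.23 with shRNA. The other HSPD1 probe sets above the floor gave 0.28 and −0.06 with ORF and −0.02 and 0.47 with shRNA, so the size and sign for this gene depended on the probe set.

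The J-domain proteins held the widest single difference of the system, in DNAJB5. DNAJB5, a J-domain protein of heart and brain known to bind histone deacetylases, read 7.07 with ORF, 6.73 with shRNA and 6.005 with control. Control was the lowest, barely above the floor, and the gene was 2.09-fold higher with ORF (log2 ratio 1.06, noise SD 0.42) and 1.66-fold higher with shRNA (0.73, noise SD 0.43). Its other probe set was below the floor on all 3 arrays, at most 1.71, and could not be compared.

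DNAJB2, a J-domain protein with ubiquitin-interacting motifs that is enriched in neurons, read 7.06 with ORF, 7.29 with shRNA and 6.45 with control. Control was again the lowest, with 1.53-fold for ORF (log2 ratio 0.62, noise SD 0.42) and 1.79-fold for shRNA (0.84, noise SD 0.42). It has 1 probe set, so no second reading was available.

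Among brighter J-domain genes the ratios to control were mostly above 0 by their brightest probe sets. DNAJA2, a cytosolic partner of HSPA8, read 12.07, 12.20 and 11.90 in the order ORF, shRNA, control, and its ratio for shRNA was 0.30 (noise SD 0.14), while its second probe set gave 0.04. DNAJB4 read 10.89, 11.21 and 10.84, so that shRNA alone was high, at 0.37 to control (noise SD 0.17) and 0.13 by its second probe set. DNAJB6, a suppressor of polyglutamine aggregation, lay at 0.14 for ORF and 0.23 for shRNA by a probe set that is also annotated with TMEM135, and its probe set annotated with DNAJB6 alone gave 0.07 and −0.08.

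DNAJB1 (HSP40), the classical heat-inducible J-domain protein, read 12.32 with ORF, 12.37 with shRNA and 12.41 with control, and 11.23, 11.05 and 11.46 by its second probe set. Both probe sets were highest on control, with log2 ratios of −0.09 and −0.23 for ORF and −0.04 and −0.41 for shRNA. DNAJA1 lay between 13.43 and 13.56, DNAJA3 (the mitochondrial TID1) between 11.48 and 11.64, and DNAJC7, which binds HSP70 and HSP90 through TPR repeats, between 11.30 and 11.36. DNAJA4 was the exception among the dimmer ones, with 8.75, 8.54 and 8.86, and all 4 of its probe sets above the floor gave ratios below 0 in both comparisons with control, from −0.27 to −0.01 for ORF and from −0.33 to −0.02 for shRNA. Over the 10 J-domain genes by their brightest probe sets, 8 read above control with ORF (median 0.13) and 8 with shRNA (median 0.19), counts that share the control array. Of all genes above the floor, 48.3% and 46.9% did. Second probe sets, ORF then shRNA against control, gave −0.01 and 0.07 for DNAJA1, −0.004 and 0.04 for DNAJA2, and 0.14 and −0.01 for DNAJA3. That of DNAJC7 gave −0.04 and −0.08, and that of DNAJB4 gave 0.03 and 0.13, so the counts depended on the probe set. In the list of other J-domain proteins, 5 of 11 read above control with ORF and 7 of 11 with shRNA.

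BAG proteins bind the ATPase domain of HSP70 and differ in what else they bring to it. BAG1, which links HSP70 to the proteasome, read 12.64 with ORF, 12.43 with shRNA and 12.74 with control. The shRNA array was the lowest by all 3 probe sets of the gene, with log2 ratios to control between −0.31 and −0.36 (noise SD 0.14 for the brightest), and ORF lay between, at −0.07 to −0.22. ORF against shRNA was accordingly above 0 by all 3, from 0.11 to 0.29.

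BAG3, an HSF1 target that directs HSP70 clients to autophagy, had 12.05 with ORF, 12.30 with shRNA and 12.03 with control. Here the shRNA array alone was high, at 0.27 to control (noise SD 0.14), and ORF against shRNA was −0.25 (noise SD 0.12). No second probe set of BAG3 was available. BAG5 read 11.32, 11.08 and 11.27, BAG2, an inhibitor of STUB1, lay between 12.41 and 12.55 by its brightest probe set, and BAG4 between 11.25 and 11.32. The 2 dimmer BAG2 probe sets went apart, at 0.64 and −0.33 for ORF against control and at 0.13 and −0.12 for shRNA against control.

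CDC37, the cochaperone that loads kinases onto HSP90, was the one member of high mean signal past 1.5-fold. It read 11.33 on the ORF-labelled array, 10.90 on the shRNA-labelled one and 10.69 on the control-labelled one (2578, 1906 and 1652 as linear signal). The ORF array was high, 1.56-fold above control (log2 ratio 0.64, noise SD 0.13) and 0.44 above shRNA on the log2 scale (noise SD 0.14), while shRNA against control was 0.21 (noise SD 0.17). A single probe set reads CDC37, so this difference could not be set beside a second one.

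STUB1 (CHIP), the ubiquitin ligase that tags HSP70 and HSP90 clients, was the member furthest below control on the ORF-labelled array in units of noise. Its signals were 13.50 with ORF, 13.69 with shRNA and 13.82 with control, and the log2 ratios to control were −0.31 (noise SD 0.08) and −0.12 (noise SD 0.12). After loess centring these ratios were −0.25 and −0.05. As deposited, all 3 probe sets lay below control on both arrays, between −0.12 and −0.31 for ORF and between −0.12 and −0.20 for shRNA.

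FKBP4, an immunophilin of steroid receptor complexes, read 10.80, 10.69 and 10.48 in the order ORF, shRNA, control, with ratios to control of 0.33 (noise SD 0.13) and 0.22 (noise SD 0.19). Its 3 probe sets above the floor gave ratios from 0.01 to 0.57 for ORF, so the size was not settled. FKBP5, its glucocorticoid-induced relative, read 9.49, 9.55 and 9.29, with ratios to control of 0.20 (noise SD 0.19) and 0.26 (noise SD 0.23), and its second probe set above the floor gave −0.06 and −0.12. STIP1 (HOP) had 11.71, 12.00 and 11.79, with the shRNA array high by the brightest probe set, and a second probe set read 9.94, 9.72 and 9.42 with ORF highest.

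PTGES3 (p23), which stabilises the closed form of HSP90, lay between 14.49 and 14.56, and ST13 (HIP), which holds HSP70 in its client-bound form, between 13.31 and 13.36. CHORDC1, whose promoter is printed above, read 13.01, 13.07 and 12.94 by its brightest probe set. Another of its probe sets, also annotated with NAALAD2, read 9.63, 9.12 and 9.78, a log2 ratio of −0.66 for shRNA against control, where the brightest probe set gave 0.13. The remaining probe set above the floor gave 0.36 there and −0.52 for ORF against control. For ORF against shRNA these dimmer probe sets went apart, at 0.51 and −0.88. CACYBP, a partner of the SIAH1 ubiquitin ligase, lay between 13.45 and 13.63 by its brightest probe set. Its 4 probe sets gave ratios from −0.08 to 0.74 for shRNA against control and from −0.62 to 0.03 for ORF against shRNA. SERPINH1 (HSP47) lay between 11.25 and 11.39.

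Probe sets of the same gene served as a second reading where a member had more than 1 above the floor. Of 31 such members, all probe sets lay on the same side of 0 for 14 with ORF and 15 with shRNA relative to control, and for 9 in ORF against shRNA, or 45.2%, 48.4% and 29.0%. Over all 7047 genes with 2 or more, which can differ in how many probe sets they have, the shares were 40.9%, 41.5% and 41.5%. Members on the same side in both comparisons with control, which share the control array, were HSF1, FKBP4 and DNAJB4 above 0 and HSPA1A/HSPA1B, DNAJA4, DNAJB1, BAG1, BAG4 and STUB1 below 0. The median range between probe sets of a member was 0.17 for ORF against control and 0.20 for shRNA against control.

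**Figure D3:**
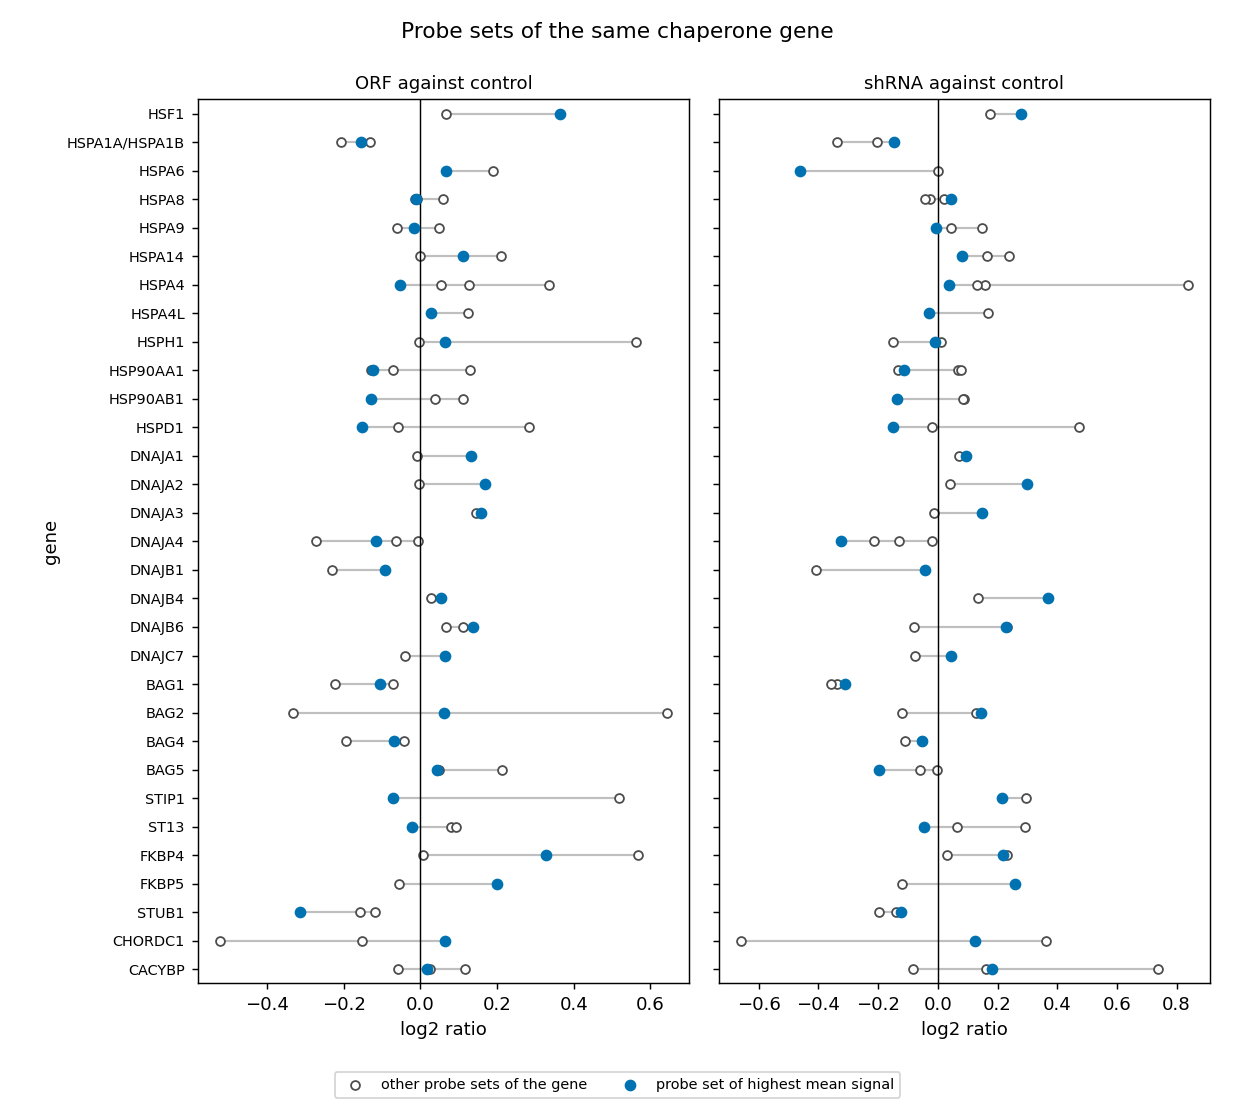
Log2 ratio (x axis) by each probe set above the floor of the chaperone genes with 2 or more (y axis), for ORF against control and shRNA against control. Filled points are the probe set of highest mean signal, open points the others, and grey lines span them. BAG1, STUB1 and HSPA1A/HSPA1B keep all points below 0, while BAG2, CHORDC1 and STIP1 spread widely.

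Ratios of the brightest genes were offset below 0 in both comparisons with control, chaperones and other genes alike in direction. Of the 14 members with a mean of 13 or more, 9 were below control with ORF and 9 with shRNA, with medians of −0.02 and −0.03. Over all 769 genes of that brightness the medians were −0.06 and −0.08, and 75.03% and 71.7% were below control. Of the 15 members between 11 and 13, 7 and 5 were below control (medians 0.02 and 0.08, against −0.01 and −0.01 for all genes there). For the 8 members between the 75th percentile and 11 the medians were 0.13 and 0.21, against 0.02 and −0.01.

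**Figure D4:**
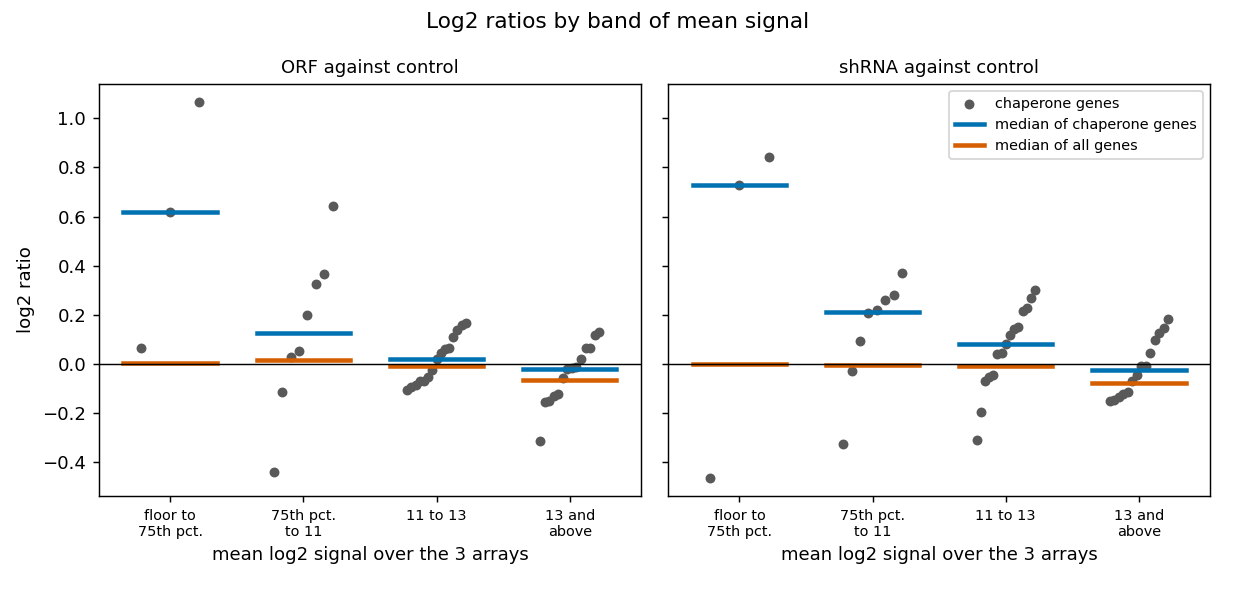
Log2 ratio (y axis) of the chaperone genes in 4 bands of mean log2 signal (x axis), for ORF against control and shRNA against control. Points are genes, blue bars their median and orange bars the median of all genes in the band. The lowest band holds 3 chaperone genes and the brightest 14, where both medians lie below 0.

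Chaperone genes known as heat-inducible had medians close to those of the other members. The list held 19 members, of which AHSA1 had no probe set, and its 17 distinct probe sets had a median log2 ratio of 0.02 in ORF and 0.05 in shRNA relative to control, and of −0.01 for ORF against shRNA. For the other members, 23 with a probe set, the medians were 0.05, 0.08 and −0.01. In all 3 comparisons 0 of the 17 inducible probe sets passed 1.5-fold in either direction, where 2.61% to 3.50% of all genes did in each direction, so a count of 0 in so few lies near the background. Their ratios to control ran from −0.16 for HSPA1A/HSPA1B to 0.33 for FKBP4 with ORF, and from −0.46 for HSPA6 to 0.27 for BAG3 with shRNA.

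Further genes were read from 7 lists, of which TRiC, prefoldin and the partners of HSP90 and HSP70 hold chaperone genes, while the stress and glucocorticoid lists also hold genes that are not chaperones, such as JUN and SGK1. In these lists, 62 of 65 genes had a probe set and 60 were above the floor, and their median was −0.02 in both comparisons with control. With shRNA, 7 of the 60 (11.7%) lay past 2 noise SD of control, against 9.1% of all genes, and with ORF 3 did (5%, against 11.9%). Past 1.5-fold there was 1 gene, HSF4, a lens heat shock factor, with 6.44 on the ORF-labelled array, 6.74 on the shRNA-labelled one and 7.32 on the control-labelled one. Its log2 ratio to control was −0.88 with ORF and −0.58 with shRNA, on a dim probe set, and the second lay just inside the threshold. The 8 subunits of TRiC, the cytosolic chaperonin for actin and tubulin, had medians of −0.04 for ORF and −0.06 for shRNA. Prefoldin, which passes clients to TRiC, had medians of −0.03 and −0.04, other HSP90 partners 0.07 and 0.04, other J-domain proteins −0.003 and 0.05, and other HSP70 system genes −0.03 and −0.05. The list of further heat-inducible genes and HSF regulators, which holds HSF4, had −0.08 and 0.17. Glucocorticoid-induced genes had −0.22 and −0.21 over 5 genes, in both directions, from −0.42 to 0.54 with ORF and from −0.54 to 0.46 with shRNA.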

How the data were processed

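The arrays were hybridised with biotin-labelled RNA amplified from total RNA, per the labels' protocols. The deposited values are log2 signals for 54675 probe sets, and MAS5 is named per the submitters' processing notes. Neither the version of MAS5 nor a scaling target or detection call is stated in the sources used here. The log2 scale was read from the values: linear means without the highest and lowest 2% were 500.1 on each array, so no rescaling was done. GEO's platform annotation named 41091 probe sets with 1 symbol and 1801 with several. Those with several were used, as the choice of members required.

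Signals below the pooled median (5.93) were set to it before log2 ratios were taken, which understates differences of dim genes. The noise SD is the root mean square difference of log2 ratios between 5477 pairs of probe sets of 1 gene, divided by the square root of 2, in 20 bins of mean signal. The precision is limited by having 1 array per group. HSPA1A and HSPA1B count once. The background counts distinct probe sets chosen in the same way. Every member may be named. Members past 1.5-fold were given in full and, from other lists, up to 4 genes past 1.5-fold. Members and lists were chosen with earlier results of these data known. The procedure was tested on simulated data, with differences put into genes of high mean signal only. Dim members such as DNAJB5, DNAJB2 and HSPA6 were not covered by it. The check of the noise SD left out the dimmest bins and the brightest bin. Alternatives were normalization, floor, probe set choice and fold threshold. Python 3.11.15, pandas 2.3.3 and statsmodels 0.14.6 (loess) were used.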

Additional observations from a re-analysis of the deposited data

Results flagged for a closer look

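HSPA4, a nucleotide exchange factor of HSP70, has a dimmer probe set that was not the one chosen for the gene and that stood above control on the array labelled shRNA. It read 8.91 with ORF, 9.41 with shRNA and 8.57 with control, which gave a log2 ratio of 0.84 for shRNA against control and 0.34 for ORF against control (noise SD 0.21 for ORF and 0.27 for shRNA). The other 3 probe sets of HSPA4, brighter or alike, gave 0.04, 0.16 and 0.13 for shRNA against control. With 1 array per group the difference has no replicate check.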

How the results depend on the processing

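No paired analysis was possible because each group has 1 array. The counts of members past 1.5-fold kept their values under quantile normalization, loess centring, equal medians, no floor and single-symbol probe sets. With the floor at the 75th percentile they became 1 higher for ORF (CDC37) and 0 for shRNA, fewer since DNAJB5 and DNAJB2 lie below that floor. With the median over probe sets, 2 were higher for ORF and 1 for shRNA, since the ratios of DNAJB5 became 0.53 for ORF and 0.36 for shRNA when averaged with its probe set below the floor. Without probe sets ending in _x_at or _s_at, which left 28 members, 2 were higher for ORF, CDC37 having no other probe set, 4 were higher for shRNA (HSPA4 and CACYBP joined), 1 was lower (CHORDC1), and 1 was lower for ORF against shRNA (CACYBP). Shares of all genes past 1.5-fold were not taken under the changed floor and probe set choices. These counts therefore have no background and cannot be read as a result about the members. At a log2 ratio of 0.32, 5 were higher and 1 lower for ORF, 2 lower for shRNA, and 3 higher and 1 lower for ORF against shRNA. At 2-fold 1 was higher for ORF and 0 for shRNA.

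The member median for ORF against control was 0.02 and became 0.053 under quantile normalization, 0.048 after loess and 0.051 without _x_at and _s_at probe sets. With equal medians it became −0.0067, so its sign is not settled. That setting moves every signal of an array by the same amount, and the median of all genes became −0.026 there. For shRNA against control it was 0.10 under quantile normalization, and for ORF against shRNA −0.0392 under quantile normalization and −0.0393 with equal medians. No scaling moved the median of all genes by more than 0.03. The cause of the shifts under other settings was not tested. Dim members are limited most: the noise SD was 0.08 for the brightest and 0.42 for DNAJB2.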
